A study of Mus musculus with 8 samples.

Results

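Mitosis and spindle genes were followed across 8 Affymetrix expression arrays of mouse CD4 T cells cultured toward the Th17 fate, in which helper T cells produce interleukin 17. The set was a list of 46 gene symbols known from cell biology, chosen with earlier results of these data known. For 45 of them the platform table held a probe set assigned to that symbol alone, and the brightest such probe set stood for the gene; Ccnb1 had none in that table and was not analysed here. All 45 passed the brightness filter used for the 11128 genes tested. The values are log2 signal intensities, so a difference of 1 is a doubling.

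The arrays came from 2 experiments with 2 groups each and 2 biological replicates per group, named replicate 1 and replicate 2 in the labels. The RORγt experiment set cells of RORgt (-/-) mice, which lack the nuclear receptor that directs Th17 differentiation, beside cells of RORgt WT mice. The SRC-3 experiment set cells of SRC-3 (f/f) mice, labelled deficient in this coactivator of nuclear receptors, beside cells of SRC-3 WT mice; what removes the floxed gene, the age of the mice and whether replicates were separate mice are not given in the sources used here. For all 4 groups the labels give naive CD4 T cells activated through CD3 and CD28 and cultured with IL-1, IL-6 and IL-23, in a protocol text that names only the SRC-3 genotypes. The p-values measure only the spread between these samples, and the number of arrays limits every value.

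The arrays carried the labelled cell type: log2 signals of Cd3e, Cd3d, Cd3g, Cd4 and Cd28 lay between 11.58 and 13.56 on every array. The related cytokine gene Il17f had 8.95 and 9.07 in RORγt-deficient cells, against 12.47 and 12.27 in their wild type. The signature cytokine gene Il17a had 7.52 and 7.16 in RORγt-deficient cells, against 11.63 and 11.27 in their wild type. It had 9.06 and 9.14 in SRC-3-deficient cells, against 10.39 and 10.02 in their wild type. Of the markers of other cells, none of 5 myeloid and 4 NK cell genes passed the filter of 7.85, and of 4 B cell and 2 CD8 T cell genes only Cd79b and Cd8b1 did. The SRC-3 gene Ncoa3 had log2 signals of 11.15 and 10.97 in SRC-3-deficient cells, against 11.76 and 11.53 in their wild type (log2 difference -0.58, limma adjusted p = 0.0567). The gene of RORγt itself was not analysed here. The transcript Xist of the inactive X chromosome had 6.37 and 6.08 in RORγt-deficient cells, against 12.55 and 12.76 in their wild type, and the Y-linked gene Eif2s3y had 10.47 and 10.48 in deficient cells, against 4.84 and 4.63 in wild type, so the sex of the mice moved with that genotype. In the SRC-3 experiment deficient replicate 1 had an Xist signal of 7.10 and deficient replicate 2 had 13.60, against 13.65 and 13.52 in wild type. Kif4 was the only member on the X chromosome, and no member was on the Y chromosome.

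A dividing cell enters mitosis when the kinase CDK1, held by cyclins A and B, is switched on. Polo and Aurora kinases then help to build a spindle of microtubules, kinesin motors move and order those microtubules, and kinetochores tie them to the chromosomes. A checkpoint holds the cell until every chromosome is attached, after which the anaphase-promoting complex destroys cyclin B and the cell is cut into daughters. Activated T cells divide fast, and the transcripts of this machinery are known to be made together late in the cell cycle. Much of that timing is attributed to a short promoter element called the cell cycle genes homology region (CHR), bound by the DREAM and B-MYB-MuvB complexes, often with CCAAT boxes bound by NF-Y.

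Promoter windows of RefSeq (assembly GRCm38.p6), from 250 bases before to 50 bases after a transcription start, were matched by symbol to 40 of the 45 members, with 43 windows in all; Aurkb, Tpx2, Ccna2, Kif20a and Dlgap5 are named only. The CHR letters TTTGAA, searched on both strands, were in 32 of the 43 windows (74.4%), against 11.7% of 11336 windows of the genes tested and 17.9% of all 32851 windows. Within 50 bases of the start they were in 30 of 43 windows (69.8%), against 3.05% of windows of genes tested. The letters CCAAT on either strand were in 67.4% of member windows, against 37.4% of windows of genes tested. Both sets of letters were in 26 member windows (60.5%), against 4.71% of windows of genes tested. The last letter of one motif can be the first of the other, and a match is a description of letters, not a measured binding site.

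The windows below are shown because they span the size of the RORγt differences reported further on, from the cytokinesis gene Prc1, which had the highest one, to the centriole kinase gene Plk4, which had the lowest. Capitals mark the CHR letters and the CCAAT letters, or their reverse complements, and each window runs 5′ to 3′ on the gene's strand.
Prc1, chr7:80294201-80294500, plus strand: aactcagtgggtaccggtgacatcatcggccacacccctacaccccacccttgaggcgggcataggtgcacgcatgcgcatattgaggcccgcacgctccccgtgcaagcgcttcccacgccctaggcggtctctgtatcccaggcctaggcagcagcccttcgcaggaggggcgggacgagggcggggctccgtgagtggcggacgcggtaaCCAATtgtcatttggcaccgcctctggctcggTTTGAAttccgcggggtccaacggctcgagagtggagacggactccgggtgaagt
Cenpf, chr1:189688037-189688336, minus strand: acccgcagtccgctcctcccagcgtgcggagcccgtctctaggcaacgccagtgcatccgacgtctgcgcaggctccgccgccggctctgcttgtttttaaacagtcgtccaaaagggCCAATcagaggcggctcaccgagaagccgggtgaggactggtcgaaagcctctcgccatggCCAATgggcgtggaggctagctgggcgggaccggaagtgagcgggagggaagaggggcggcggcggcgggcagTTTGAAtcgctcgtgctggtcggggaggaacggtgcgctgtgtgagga
Ccnb2, chr9:70421505-70421804, minus strand: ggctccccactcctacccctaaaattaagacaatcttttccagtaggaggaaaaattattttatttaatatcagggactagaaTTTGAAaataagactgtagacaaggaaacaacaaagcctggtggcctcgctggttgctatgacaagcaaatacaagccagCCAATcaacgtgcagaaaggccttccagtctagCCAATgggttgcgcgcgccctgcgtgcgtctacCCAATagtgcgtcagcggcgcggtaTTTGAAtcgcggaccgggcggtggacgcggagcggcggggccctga
Plk1, chr7:122159185-122159484, plus strand: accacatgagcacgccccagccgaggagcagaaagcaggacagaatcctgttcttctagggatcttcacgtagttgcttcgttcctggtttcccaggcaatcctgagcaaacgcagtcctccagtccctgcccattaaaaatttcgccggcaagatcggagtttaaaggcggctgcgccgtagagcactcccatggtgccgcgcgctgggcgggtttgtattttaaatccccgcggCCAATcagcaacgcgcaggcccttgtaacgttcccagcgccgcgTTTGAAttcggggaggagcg
Cdk1, chr10:69352863-69353162, minus strand: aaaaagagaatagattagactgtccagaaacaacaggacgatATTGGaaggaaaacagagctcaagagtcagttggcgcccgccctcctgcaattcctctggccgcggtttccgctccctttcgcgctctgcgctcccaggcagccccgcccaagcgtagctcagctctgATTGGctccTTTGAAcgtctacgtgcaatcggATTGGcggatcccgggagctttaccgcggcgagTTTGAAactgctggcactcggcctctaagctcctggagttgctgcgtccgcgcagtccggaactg
Plk4, chr3:40799701-40800000, plus strand: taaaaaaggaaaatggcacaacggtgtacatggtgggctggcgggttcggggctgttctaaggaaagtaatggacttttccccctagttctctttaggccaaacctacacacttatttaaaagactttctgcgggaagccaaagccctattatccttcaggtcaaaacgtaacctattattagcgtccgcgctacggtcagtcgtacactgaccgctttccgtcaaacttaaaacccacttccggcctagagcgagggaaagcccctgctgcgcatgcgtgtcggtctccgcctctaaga
In Prc1 the CHR letters began at position -5 and a CCAAT at -37, with the start counted as 1 and the base before it as -1. In Cenpf they began at 3 with CCAAT at -132 and -71, and in Plk1 at 31 with CCAAT at -14. The window of Ccnb2 held CHR letters at -167 and 5 and CCAAT at -87, -54 and -21. Cdk1 also held both motifs although its RORγt difference was small, and the window of Plk4 held neither.

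**Figure D1:**
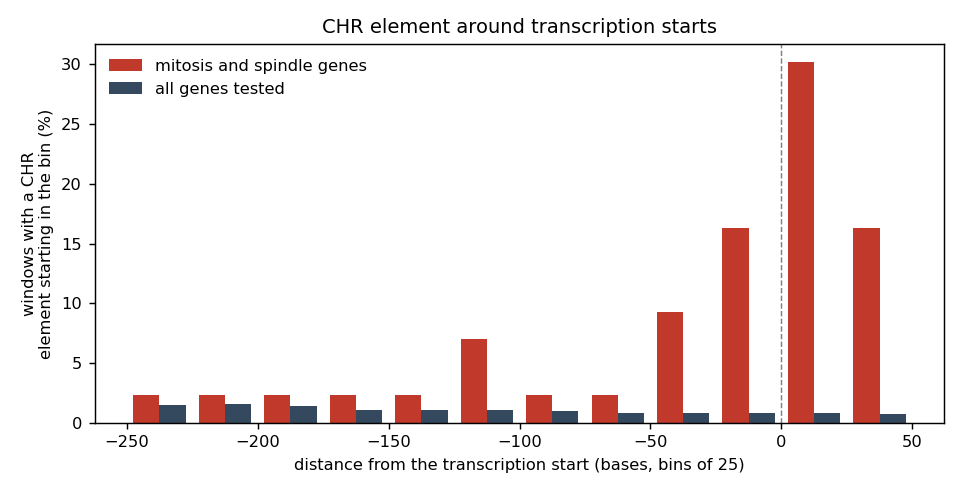
Share of promoter windows (y axis, percent) in which the CHR letters begin, in bins of 25 bases from the transcription start (x axis). Red marks the 43 windows of mitosis and spindle genes, and dark the 11336 windows of all genes tested. In the bin just after the start these letters began in 30.2% of the member windows, against 0.8% of the windows of genes tested.

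Cells without RORγt were set against their wild type to find transcripts whose level follows the receptor. The difference was above 0 for all 45 mitosis and spindle genes, where it was for 50.4% of all genes tested, and all 45 had both deficient arrays above both wild-type arrays, where 35.8% of all genes tested did. The median log2 difference over the members was 0.65 (1.57-fold), with a range of 0.13 to 0.97, and the median over all genes tested was 0.00. After adjustment over all genes, 19 of the 45 rose and none fell (limma, adjusted p under 0.05), where 10% of all genes tested rose and 9.37% fell. At an unadjusted p under 0.05 there were 38 members, where 34.6% of all genes had such a p in either direction.

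How many members passed depended on which arrays set the spread. With the 4 RORγt arrays alone limma called 43 of the 45 higher, all but Plk4 and Ncapg, where 16.5% of all genes were called higher and 13.9% lower. The standard errors of the members lay between 0.05 and 0.12 in that fit, against 0.12 to 0.27 in the fit of all 8 arrays, which takes in the wider replicate spread of the SRC-3 experiment described below. Leaving out 1 RORγt array ended all calls: the lowest adjusted p was 0.0923 without deficient replicate 1 (19 members at an unadjusted p under 0.05), 0.0511 without deficient replicate 2 (34 members), 0.0548 without wild-type replicate 1 (33 members) and 0.109 without wild-type replicate 2 (15 members). Each of these fits left 1 array in a RORγt group, so fewer arrays carried the difference and set the spread. The median difference over the members was 0.57 to 0.73 across these fits, and all 45 differences stayed above 0 in each. Of all genes, 2.54% to 4.24% were called higher in these fits. Leaving out SRC-3-deficient replicate 1 or 2 gave 30 member calls each, where 10.7% of all genes were called higher, and leaving out SRC-3 wild-type replicate 1 or 2 gave 34 each, where 12% were. Without the filter Ccnb2, Kif2c, Kif15 and Ect2 missed the threshold, and with quantile normalization Kif23, Kif2c, Kif4, Kif15 and Ect2 did. The part of sex in these differences cannot be told apart from that of genotype. Of the CD8 and B cell markers that passed the filter, Cd8b1 gave 0.18 (limma adjusted p = 0.229) and Cd79b -0.21 (adjusted p = 0.214). The summed linear signal of the 2 CD8 markers was 705 to 707 in deficient cells, against 624 to 660 in wild type, with Cd8a below the filter. That of 4 NK cell markers, all below the filter, was 189 to 195 in deficient cells, against 180 to 181 in wild type; the part of either in the result was not tested. In bulk RNA more dividing cells and more mitotic RNA per cell cannot be told apart.

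**Figure D2:**
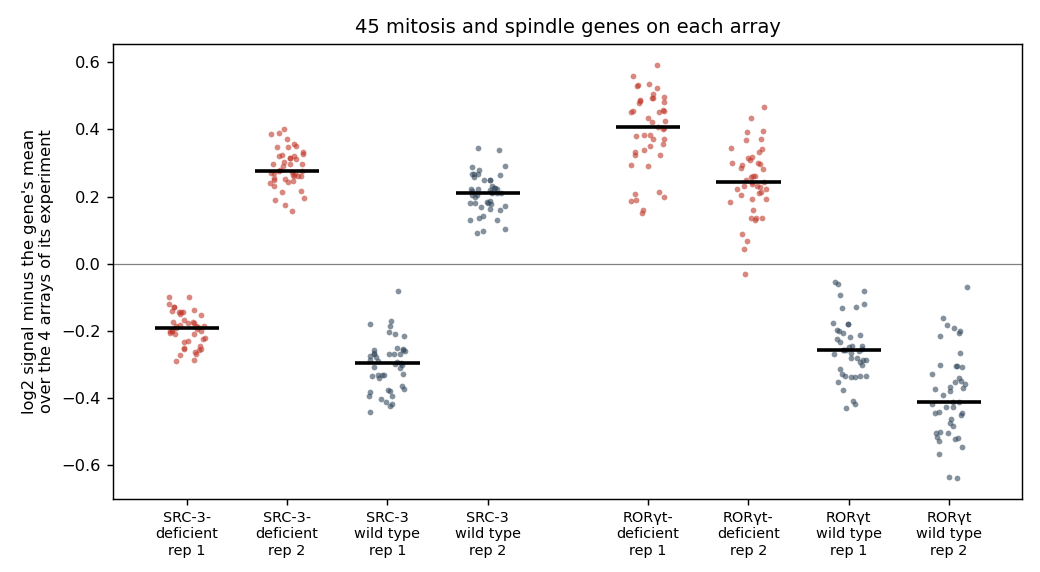
Each point is 1 of the 45 genes on 1 array, as its log2 signal minus its mean over the 4 arrays of its experiment (y axis); the bars are medians. The RORγt-deficient medians, 0.41 and 0.24, stand above those of the RORγt wild type, -0.25 and -0.41; those of SRC-3-deficient cells, -0.19 and 0.28, overlap with those of their wild type, -0.30 and 0.21.

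The counts by role from here on are to be read beside the 10% of all genes tested that rose. Cyclins and their kinase came first in the order of entry into mitosis. Ccnb2, which encodes cyclin B2, had log2 signals of 12.87 and 12.69 in RORγt-deficient cells, against 12.04 and 11.90 in wild type (difference 0.81, SE 0.23, limma adjusted p = 0.0473). Ccna2, the gene of cyclin A2, had 12.82 and 12.74 in deficient cells, against 12.32 and 12.22 in wild type (0.51, adjusted p = 0.0794). Cdk1, whose kinase both cyclins hold, had 12.19 and 12.09, against 11.88 and 11.84 (0.28, adjusted p = 0.252). The groups were apart for each of these genes, and the difference of cyclin B2 was the only one past the threshold in the fit of all arrays.

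Of the other mitotic kinases, Nek2, which helps to part the centrosomes, had 9.82 and 9.60 in RORγt-deficient cells, against 8.94 and 8.81 in wild type (0.84, limma adjusted p = 0.0348). Plk1, the Polo kinase gene needed from mitotic entry to cytokinesis, had 12.33 and 12.22 in deficient cells, against 11.59 and 11.36 in wild type (0.80, adjusted p = 0.0636). Aurka, whose kinase works at spindle poles, had 11.04 and 10.90, against 10.40 and 10.29 (0.62, adjusted p = 0.0882). Of these genes Nek2 rose, and the signals of Plk1 and Aurka were apart by more than the distance between replicates. Aurkb, the gene of the kinase at centromeres and the midzone, had 12.68 and 12.54 in deficient cells, against 12.15 and 12.02 in wild type (0.53, adjusted p = 0.11). Melk gave 0.32 and Plk4, whose kinase starts centriole duplication rather than mitosis, gave 0.13 (adjusted p = 0.484), with 10.50 and 10.31 in deficient cells, against 10.28 and 10.27 in wild type. Plk4 was thus the member whose groups lay closest together.

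Aurora B works in a complex with survivin and borealin, encoded by Birc5 and Cdca8. Birc5 had 10.11 and 9.86 in RORγt-deficient cells, against 9.50 and 9.23 in wild type (0.62, limma adjusted p = 0.0963), and Cdca8 gave 0.54 (adjusted p = 0.118). Neither passed the threshold in the fit of all arrays, and both passed with the 4 arrays alone (adjusted p = 0.0121 for Birc5 and 0.0173 for Cdca8). Of the spindle checkpoint, Bub1b, the gene of BUBR1, had 10.99 and 10.71 in deficient cells, against 10.13 and 10.04 in wild type (0.77, adjusted p = 0.0342). The checkpoint kinase genes Bub1 and Ttk gave 0.56 (adjusted p = 0.153) and 0.61 (adjusted p = 0.0551). Bub1 had 11.04 and 10.75 in deficient cells, against 10.36 and 10.31 in wild type. Mad2l1, which encodes the inhibitor of CDC20, gave 0.27 (adjusted p = 0.207), so the members of the checkpoint ranged from 0.27 to 0.77 and 1 of the 4 rose.

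Cdc20, the activator of the anaphase-promoting complex that the checkpoint restrains, had 11.07 and 10.91 in RORγt-deficient cells, against 10.37 and 10.11 in wild type (0.75, limma adjusted p = 0.0594). Cdca3, a trigger of mitotic entry that works in protein degradation, gave 0.81 (adjusted p = 0.062). Ube2c, the ubiquitin-conjugating enzyme of the same complex, gave 0.28 (adjusted p = 0.256). None of these 3 degradation genes passed in the fit of all arrays (all 3 passed with the 4 arrays alone), and the difference of Ube2c was the lowest of them.

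At the kinetochore and centromere 3 of 6 genes rose. Cenpf, a large protein of the outer kinetochore, had 9.97 and 9.72 in RORγt-deficient cells, against 8.97 and 8.85 in wild type (0.93, SE 0.22, limma adjusted p = 0.0248). Cenpe, a kinesin that pulls chromosomes into line, had 10.21 and 9.96 in deficient cells, against 9.30 and 9.23 in wild type (0.82, adjusted p = 0.0362). Cenpa, the histone variant that marks centromeres, had 12.04 and 11.82, against 11.27 and 11.12 (0.73, adjusted p = 0.029). The microtubule-binding NDC80 complex lay lower: its subunit genes Ndc80, Nuf2 and Spc25 gave 0.63 (adjusted p = 0.051), 0.61 (adjusted p = 0.0513) and 0.50 (adjusted p = 0.125). Ndc80 had 9.81 and 9.70 in deficient cells, against 9.26 and 8.99 in wild type.

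Of the kinesins 7 of 8 rose, with a median log2 difference of 0.74 over the 8 genes. Kif22, which pushes chromosome arms away from the poles, gave 0.96 (limma adjusted p = 0.0355). Kif18a, which damps chromosome movements, had 8.96 and 8.90 in RORγt-deficient cells, against 8.09 and 8.08 in wild type (0.85, SE 0.19, adjusted p = 0.0209). Kif2c, a microtubule depolymerase, had 10.60 and 10.44 in deficient cells, against 9.85 and 9.54 in wild type (0.83, adjusted p = 0.0442). The replicates of Kif18a lay close together in both groups, and the groups lay far apart on that scale. Kif11, the motor that pushes spindle poles apart, had 11.84 and 11.57 in deficient cells, against 11.01 and 10.97 in wild type (0.71, adjusted p = 0.0252). Kif23, a motor of the central spindle, had 10.64 and 10.59, against 10.03 and 9.90 (0.65, adjusted p = 0.0392). The chromokinesin gene Kif4 rose by 0.75 and Kif15, a helper of KIF11, by 0.60. Kif20a, a motor needed for cytokinesis, gave 0.73 (adjusted p = 0.101) and was the only kinesin that missed the threshold, with the widest standard error of the members (0.27).

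Of the genes for spindle assembly, Aspm, which focuses spindle poles, had 10.13 and 9.94 in RORγt-deficient cells, against 9.14 and 9.07 in wild type (0.92, limma adjusted p = 0.0211). Nusap1, which bundles microtubules, had 12.20 and 12.16 in deficient cells, against 11.48 and 11.33 in wild type (0.77, adjusted p = 0.0268). Both rose, while Tpx2, the activator of Aurora A, gave 0.65 (adjusted p = 0.0642) and Dlgap5 0.60 (adjusted p = 0.0609).

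Among the genes of cytokinesis 3 of 5 rose, and they included the member with the smallest p. Prc1 (probe set 10554445), which bundles the microtubules of the central spindle, had 10.32 and 10.28 in RORγt-deficient cells, against 9.48 and 9.18 in wild type (1.96-fold, difference 0.97, SE 0.20, limma adjusted p = 0.0152). Racgap1, part of the centralspindlin complex with KIF23, had 11.73 and 11.64 in deficient cells, against 10.91 and 10.70 in wild type (0.88, SE 0.19, adjusted p = 0.0185). Ect2, the exchange factor that this complex recruits to start furrowing, gave 0.66 (adjusted p = 0.0451). Cep55, needed for the final cut, gave 0.69 (adjusted p = 0.066) and Anln, the gene of anillin, 0.52 (adjusted p = 0.0587).

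The genes of chromosome structure had a median log2 difference of 0.50, and 1 of 4 rose. Top2a, the topoisomerase that untangles sister DNA, had 12.64 and 12.53 in RORγt-deficient cells, against 12.09 and 11.95 in wild type (0.56, SE 0.13, limma adjusted p = 0.026). Mki67, the gene of the proliferation marker Ki-67, had 12.56 and 12.37 in deficient cells, against 11.99 and 12.02 in wild type (0.46, adjusted p = 0.0685). The condensin genes Ncaph and Ncapg gave 0.53 (adjusted p = 0.12) and 0.26 (adjusted p = 0.367). Ncapg and Plk4 were the members that stayed above the threshold with the 4 RORγt arrays alone (adjusted p = 0.0586 and 0.223).

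**Figure D3:**
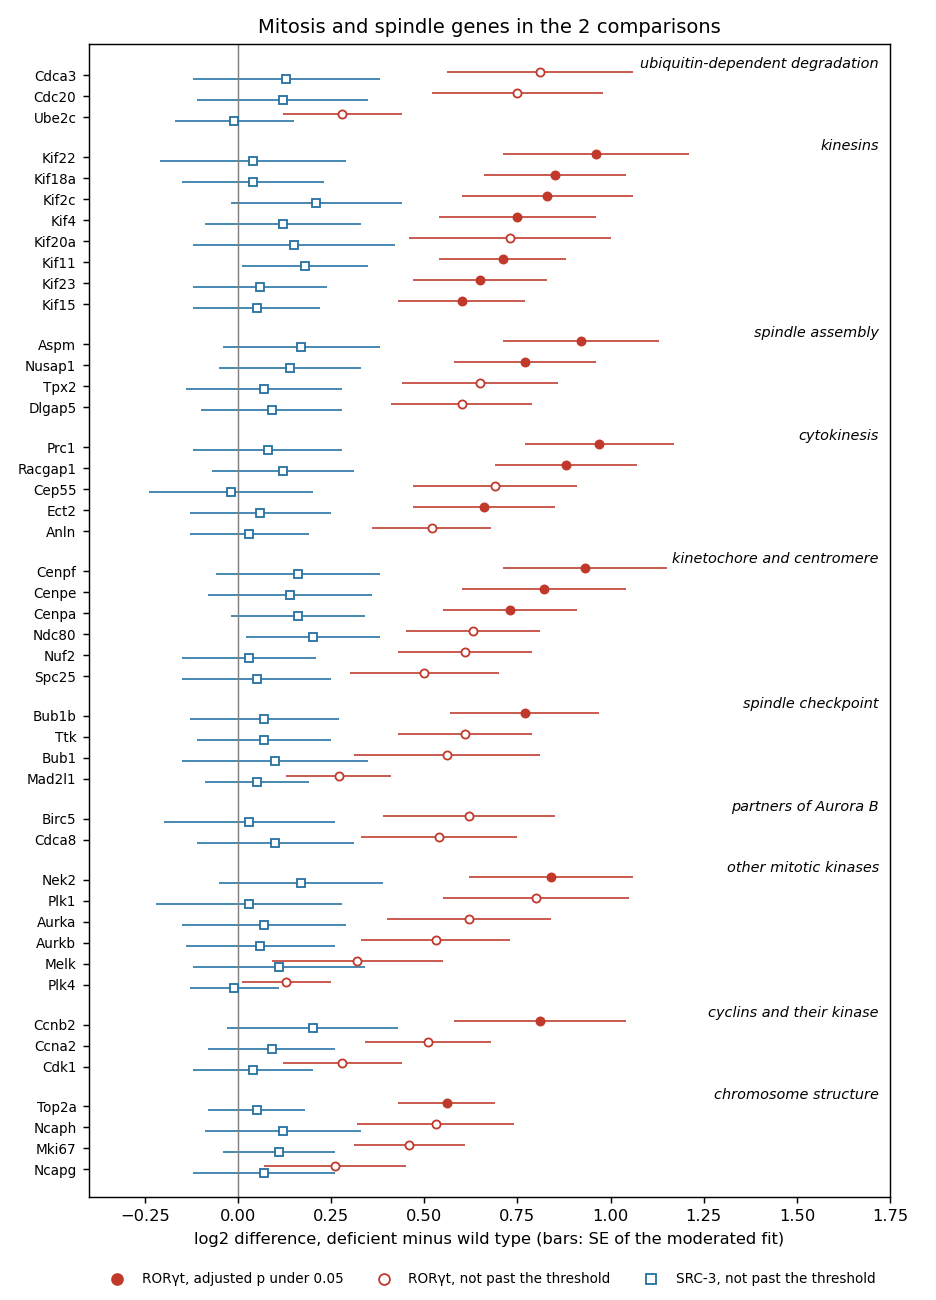
Log2 difference of each of the 45 genes (x axis; points with bars of 1 SE of the moderated fit of all 8 arrays), deficient minus wild type, by role, for RORγt (red circles, filled where the adjusted p is under 0.05) and SRC-3 (blue squares). All red points lie above 0, from 0.13 to 0.97, and the blue points lie between -0.02 and 0.21.

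The RORγt differences of the members were set beside their promoter letters as a description. Only the exact letters TTTGAA, on either strand, were counted as CHR letters. The 29 members with these letters in a window had a median log2 difference of 0.69 and 15 of them rose. The 11 members with a window but without these exact letters had a median of 0.61 and 4 of them rose, where 10% of all genes tested rose. Members with CCAAT letters (27) had a median of 0.73, and the 13 without had 0.61. The ranges overlapped widely, from 0.26 to 0.97 with the CHR letters and from 0.13 to 0.85 without.

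Cells labelled SRC-3-deficient were likewise set against the wild type of their own experiment. No mitosis or spindle gene passed the threshold (limma, lowest adjusted p 0.738, for Ndc80), and 0 had an unadjusted p under 0.05, where 0.225% of all genes tested passed (0.189% higher and 0.0359% lower) and 12.5% had an unadjusted p under 0.05. The log2 differences lay between -0.02 and 0.21 with a median of 0.08 (1.06-fold), where the median over all genes tested was 0.02. The difference was above 0 for 42 of the 45, where 57.2% of all genes had one above 0. The 2 groups overlapped for every member, where 23.0% of all genes lay higher and 14.3% lower without overlap. For every member the replicate gap described below exceeded the genotype difference in both groups, so this overlap followed from the gap. The same gap widened the spread behind the p-values. Neither the overlap nor the lack of small p-values therefore shows that these genes are unchanged in SRC-3-deficient cells.

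Prc1 had log2 signals of 10.63 and 11.05 in SRC-3-deficient cells, against 10.49 and 11.02 in wild type (difference 0.08, SE 0.20). Ccnb2 had 12.33 and 12.88 in deficient cells, against 12.09 and 12.73 in wild type (0.20, SE 0.23). Mki67 had 12.80 and 13.11, against 12.64 and 13.04 (0.11, SE 0.15). In each of these genes the arrays of the same replicate number lay close together and the 2 numbers lay apart. Plk1 had 11.18 and 11.78 in deficient cells, against 11.09 and 11.81 in wild type (0.03, SE 0.25). Cdk1 had 11.81 and 12.29, against 11.86 and 12.16 (0.04, SE 0.16). The smallest p values belonged to Ndc80 (0.20, SE 0.18), Kif11 (0.18, SE 0.17), Cenpa (0.16, SE 0.18), Kif2c (0.21, SE 0.23) and Ccnb2, and each of these differences was about as large as its standard error. Ndc80 had 9.93 and 10.40 in deficient cells, against 9.77 and 10.17 in wild type, and Kif11 had 11.80 and 12.23, against 11.66 and 12.02.

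**Figure D4:**
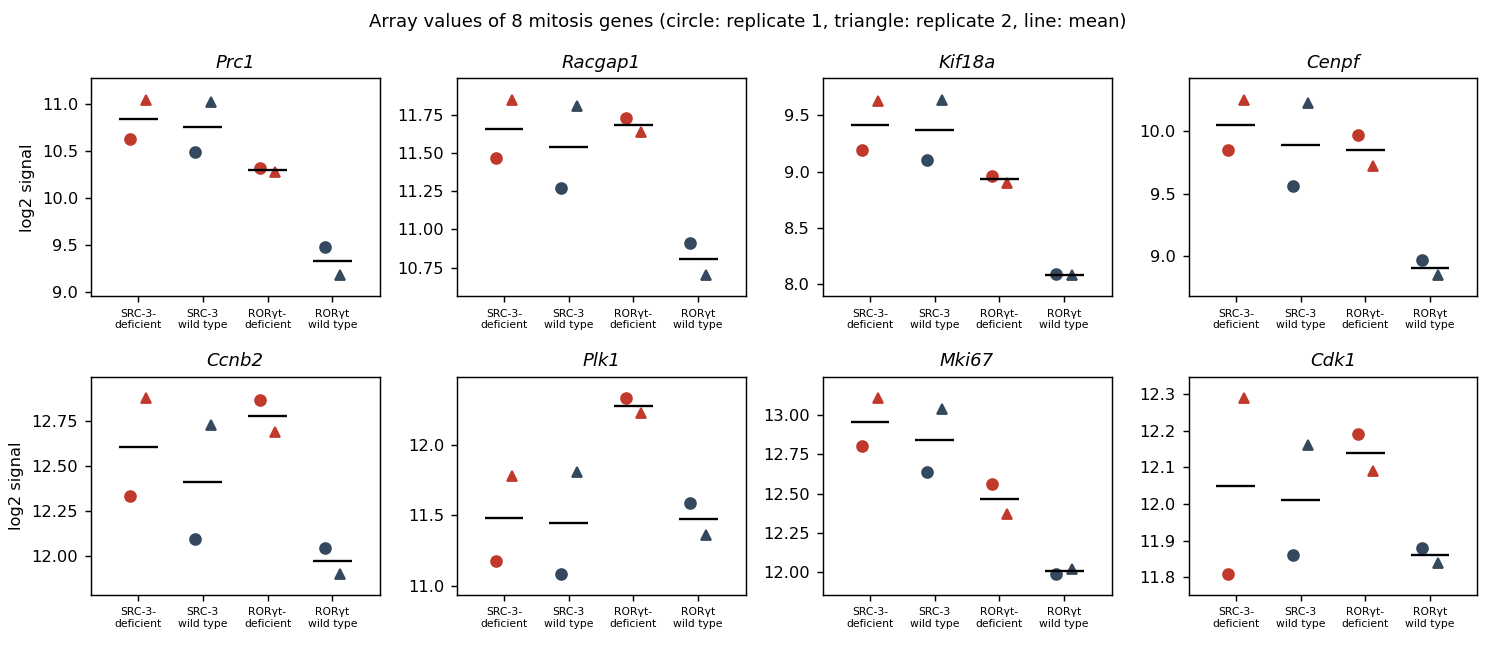
Log2 signal (y axis) of 8 members on each array, with circles for replicate 1, triangles for replicate 2 and a line for the group mean. In the SRC-3 experiment the triangles lie above the circles in both groups, as in Prc1 with 10.63 and 11.05 in deficient cells and 10.49 and 11.02 in wild type; in the RORγt experiment both deficient points lie above both wild-type points.

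The levels in the SRC-3 experiment followed the replicate number. All 45 members were higher on replicate 2 than on replicate 1 in SRC-3-deficient cells, and all 45 in wild type, where 57.8% of all genes in deficient cells and 54.6% in wild type were. Replicate 2 minus replicate 1 had a median of 0.47 in deficient cells (0.32 for Mki67 to 0.66 for Kif20a) and of 0.51 in wild type (0.18 for Plk4 to 0.73 for Kif20a), where the median over all genes was 0.03 and 0.02. For each of the 45 genes this gap exceeded the difference between the genotypes. The median replicate SD of a member was 0.33 in deficient cells and 0.36 in wild type, against 0.07 in both groups over all genes. Xist was low on deficient replicate 1 and high on the other 3 arrays of the experiment, and the part of sex in the gap was not tested.

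Because of this gap, leaving out any 1 array of the SRC-3 experiment leaves the replicate numbers unbalanced between the genotypes and moves the difference by construction. The members' median log2 difference was then 0.33 without deficient replicate 1 and -0.16 without deficient replicate 2. It was -0.16 without wild-type replicate 1 and 0.34 without wild-type replicate 2. No member passed the threshold in any of these fits (limma; at an unadjusted p under 0.05 there were 8 without wild-type replicate 2, 1 without deficient replicate 1 and 0 in the others). Between arrays of the same number, the median deviation from the experiment's mean was -0.19 in deficient cells, against -0.30 in wild type, for replicate 1, and 0.28 in deficient cells, against 0.21 in wild type, for replicate 2.

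In the RORγt experiment the replicates lay closer and the other way round. Replicate 1 was the higher array for 44 of 45 members in deficient cells and for 43 of 45 in wild type, where replicate 2 was the higher one for 50.8% of all genes in each group. Replicate 2 minus replicate 1 had a median of -0.15 in deficient cells and -0.13 in wild type. Spc25 in deficient cells (0.10) and Mki67 in wild type (0.04, with Ncaph at 0.00) went against this. The gap exceeded the genotype difference for 1 member, Plk4, in deficient cells and for 0 in wild type.

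**Figure D5:**
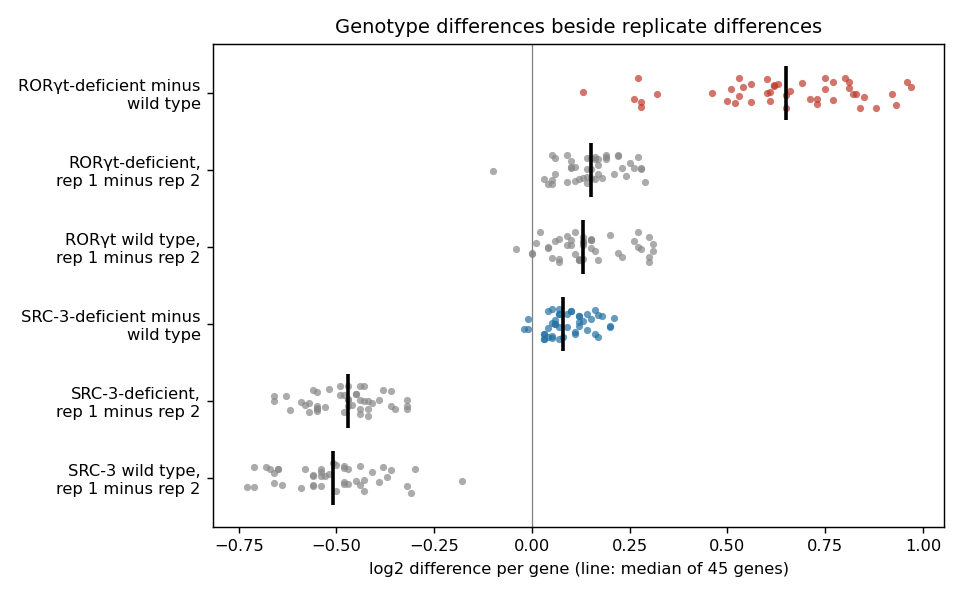
Log2 difference of each of the 45 genes (x axis; lines are medians) between genotypes (red for RORγt, blue for SRC-3) and between the 2 replicates of each group (grey, replicate 1 minus replicate 2). The median RORγt genotype difference, 0.65, lies beyond the replicate differences of that experiment, with the lowest genotype differences among them (0.13 for Plk4). For each gene the SRC-3 genotype difference (median 0.08) lies nearer to 0 than its own replicate differences in that experiment.

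Whether the members' changes differed between the deficiencies was tested directly. The RORγt difference exceeded the SRC-3 difference for all 45 members, by a median of 0.58 on the log2 scale (0.14 to 0.92). None passed the threshold (limma, lowest adjusted p 0.174, for Prc1, with 11 members at an unadjusted p under 0.05) in this fit, whose spread takes in the SRC-3 replicate gap, where 1.67% of all genes tested passed and 17.3% had an unadjusted p under 0.05.

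Other genes of the cell cycle were counted from lists that share no gene with the 45. Of 74 other mitosis genes tested in the RORγt comparison, 20 rose and none fell, with a median log2 difference of 0.43, and 59 were called higher with the 4 arrays alone. They included Cdc25b, the phosphatase that activates CDK1, with 11.75 and 11.76 in deficient cells, against 10.95 and 10.68 in wild type (0.93, limma adjusted p = 0.00814). The kinetochore scaffold gene Knl1 gave 0.98 (adjusted p = 0.0112), Cenpk 0.45 (adjusted p = 0.0147) and Depdc1a 0.94 (adjusted p = 0.0211). Of 44 genes of DNA replication and the G1/S transition, 1 rose and 3 fell, with a median of 0.09, where 10% of all genes rose and 9.37% fell. The one that rose was the transcription factor gene E2f2 (0.66, adjusted p = 0.00973), and those that fell were Rfc3, a subunit of the clamp loader (-0.68, adjusted p = 0.00825), Orc1 of the origin recognition complex (-0.47, adjusted p = 0.0196) and E2f1 (-0.22, adjusted p = 0.0499). The difference was above 0 for 32 of these 44, where it was for 50.4% of all genes. Without overlap between the groups 25 of them lay higher and 6 lower, where 35.8% of all genes lay higher and 34.2% lower. With the 4 arrays alone 12 of these 44 were called higher and 4 lower, where 16.5% of all genes were called higher and 13.9% lower.

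Of 13 regulators of the mitotic gene programme in the RORγt comparison, 1 rose and 1 fell, where 10% of all genes rose and 9.37% fell. Rbl1, which encodes the DREAM subunit p107, rose (0.47, limma adjusted p = 0.00738), and E2f5, the gene of a repressor E2F, fell (-0.64, adjusted p = 0.00145). Of 12 p53 targets and cell cycle inhibitors 4 rose and 4 fell, against the same shares of all genes. Among them the CDK inhibitor genes Cdkn1b (0.42, adjusted p = 0.00642) and Cdkn2d (0.42, adjusted p = 0.00667) rose, and Sesn2 (-0.74, adjusted p = 0.00242) and Mdm2 (-0.44, adjusted p = 0.00628) fell. Signals of Cdkn1b were 12.10 and 11.97 in deficient cells, against 11.64 and 11.58 in wild type.

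In the SRC-3 comparison no gene of these 4 lists passed the threshold (limma). The 74 other mitosis genes had a median log2 difference of 0.04. In Pttg1, which encodes securin, the replicates lay close together, with 10.02 and 10.03 in SRC-3-deficient cells, against 9.75 and 9.81 in wild type (0.24, adjusted p = 0.155). Iqgap3 gave 0.26 (adjusted p = 0.63). All 74 were higher on replicate 2 than on replicate 1 in deficient cells, where 57.8% of all genes were. In wild type 72 were, where 54.6% of all genes were. The 44 replication genes had a median of -0.10 and 6 lay above 0. Among the regulators Tfdp1 gave -0.16 (adjusted p = 0.52) and Mybl2, the gene of B-MYB, -0.21 (adjusted p = 0.578), and among the p53 targets and inhibitors Cdkn2a gave -0.29 (adjusted p = 0.214) and Btg2 0.21 (adjusted p = 0.267). Of the replication genes the values were -0.37 for E2f1 (adjusted p = 0.0726) and -0.40 for Mcm3, a subunit of the replicative helicase (adjusted p = 0.192). The replicate gap differed in size between these lists: replicate 2 minus replicate 1 had a median of 0.38 in deficient and in wild-type cells over the other mitosis genes, and of 0.28 in deficient and 0.26 in wild-type cells over the replication genes. It was 0.16 in deficient and 0.17 in wild-type cells over the regulators, and 0.10 in deficient and 0.09 in wild-type cells over the p53 targets and inhibitors.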

How the data were processed

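Per the submitters' processing notes, the deposited log2 signal intensities of the 35556 probe sets were made with RMA (background correction, quantile normalization, probe set summary) in Affymetrix Expression Console; no version or genome build is given in the sources used here. The deposited values were used unchanged. Of the probe sets, 21789 had 1 symbol and were used, and those with several symbols (1621) or none (12146) were not. Probe sets reaching the median of all values (7.85) on at least 2 arrays were kept, and the brightest mean per symbol gave 11128 genes.

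Group means of all 8 arrays were fitted with limma 3.58.1 in R 4.3.3 (lmFit, eBayes), with two-sided tests, Benjamini-Hochberg adjustment over all genes and a threshold of 0.05. An SE is that of the moderated fit. On simulated arrays of 11128 genes, 83% of genes changed 1.5-fold in the RORγt comparison and 82% in the SRC-3 comparison were recovered. That noise was independent between arrays, with spreads taken from all genes tested. Median replicate SDs of the members were larger, at 0.33 in SRC-3-deficient cells and 0.36 in their wild type, against 0.07 over all genes. They were 0.11 in RORγt-deficient cells, against 0.04 over all genes, and 0.09 in their wild type, against 0.05. The recovered shares therefore do not apply to the members. Replicate numbers were not used as a block in the main model, since no label pairs them. Members, gene lists and tests were chosen with earlier results of these data known. All members are named; array values are given for a set of central members and, per comparison and direction, for up to 10 members past the threshold by smallest p, or else 5. Nek2 and Plk4 are also given so, chosen after their values were seen. Genes of the other lists are named by smallest p, up to 4 past the threshold or else 2, with array values of Cdc25b, Cdkn1b and Pttg1 likewise chosen later. Alternatives were other normalizations, filters and probe set summaries, the RORγt or SRC-3 arrays alone, array weights, a robust prior with an intensity trend, a replicate block and leaving out each array.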

Additional observations from a re-analysis of the deposited data

How the results depend on the processing

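In the RORγt comparison the members' median log2 difference stayed between 0.57 and 0.73, and the differences of the members chosen by the rule for array values stayed above 0, under all alternatives. The count of members called higher was 19; it was 43 with the 4 arrays alone, 39 with array weights, and 0 to 34 when 1 array was left out, where 16.5%, 17.6% and 2.54% to 12% of all genes were called higher in the same fits. It was 14 to 22 (4.72% to 12.3% of all genes) with the other alternatives without a block (quantile normalization, median shift, no filter, stricter filter, mean of probe sets, robust prior with an intensity trend). With the replicate block 44 members were called in the RORγt comparison, 0 in the SRC-3 comparison (10 at an unadjusted p under 0.05) and 38 higher for the difference between the comparisons (lowest adjusted p 0.00504), where 16.7%, 2.01% and 4.52% of all genes were called higher. Without the block 0 were called for that difference, also when any 1 array was left out. Same-numbered deviations correlated over genes at 0.536 in the SRC-3 experiment and 0.00174 in the RORγt experiment, with 2 pairs each; labels give no pairing, so the arrays may share only a number. In the SRC-3 comparison 0 members were called under every alternative, and leaving out 1 array gave medians of -0.16 to 0.34. Of the values of the members chosen by that rule, over both comparisons, 701 kept their side of the threshold, 60 lost a call, 53 gained one and none turned its sign with a call.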
